A study of Mus musculus with 40 samples.

Results

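Neuropeptide precursors are the genes whose products are cut into the small signalling peptides that neurons store in dense-core granules and release beside their fast transmitter. The 10 precursors described here are Npy, Sst, Vip, Cck, Cort, Crh, Tac2, Pdyn, Nts and Adcyap1, and they were taken by name: every probe whose gene name in the scanner tables was one of these symbols, which gave 11 probes of the 55589 with a value on every array, and 10 genes of the 36362 gene names on the arrays. RNA of the cerebral cortex and of the cerebellum was measured on 40 Agilent arrays with 1 colour (Cy3). All mice were C57Bl/6, and each region had 5 groups of 4 arrays: young (2 months) wild type mice on a normal diet (36 mg of alpha-tocopherol/kg), aged (29 months) wild type mice fed that diet or an alpha-tocopherol-deficient one, and aged Ttpa-/- mice fed the deficient diet or a supplemented one (600 mg of alpha-tocopherol/kg). Ttpa encodes the alpha-tocopherol transfer protein, and mice without it have very little vitamin E in the brain, which the study used as a model of chronic oxidative stress. No Ttpa-/- group was young or on the normal diet, so genotype can be set against wild type with diet held equal only on the deficient diet, and sex is not given in the sources used here.

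In the cortex most of these precursors belong to inhibitory interneurons. Sst (somatostatin) and Npy (neuropeptide Y) overlap in one class of interneurons, Cort (cortistatin, a close relative of somatostatin that also binds somatostatin receptors) is made in part of the same cells, and Vip (vasoactive intestinal peptide) marks another class, part of which also makes Crh (corticotropin-releasing hormone) and Tac2 (the precursor of neurokinin B). Cck (cholecystokinin) is made by interneurons and by many pyramidal cells, Pdyn gives the dynorphins, Nts gives neurotensin, and Adcyap1 gives PACAP, a peptide with neurotrophic actions whose receptors it shares in part with Vip. The cerebellum has few neurons of these classes, and Crh is known there from the climbing fibres, whose cell bodies lie in the brain stem. Sst, Vip and Adcyap1 are among the textbook targets of cAMP signalling, which acts through the transcription factor CREB and its binding site, the cAMP response element.

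The promoter stretches of Sst, Cort, Adcyap1 and Cck are shown. They were chosen among the members whose promoter holds the letters marked in capitals, because results below turn on these genes. Npy, which had no such match, and Crh, which had no entry, also figure in the results and are not shown. They are RefSeq sequence of GRCm38.p6, a different build from the mm9 positions of the probes, and each is 60 bases written from 5′ to 3′ on the gene's own strand. Sst lies at chr16:23890857-23890916 on the minus strand, and its capitals mark the whole palindromic element, TGACGTCA, which ends 40 bases before the start of the gene. Capitals in the other stretches mark the shorter half-site TGACG, or CGTCA where it is read from the other strand: Cort is at chr4:149126764-149126823 on the minus strand, Adcyap1 at chr17:93198899-93198958 on the plus strand and Cck at chr9:121495709-121495768 on the minus strand.
Sst: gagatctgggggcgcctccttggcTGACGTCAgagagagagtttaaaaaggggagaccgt
Cort: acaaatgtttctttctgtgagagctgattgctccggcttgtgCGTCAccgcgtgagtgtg
Adcyap1: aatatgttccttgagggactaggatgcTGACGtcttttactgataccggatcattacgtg
Cck: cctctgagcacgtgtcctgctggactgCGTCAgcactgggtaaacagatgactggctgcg
In the 250 bases before the start, on either strand, TGACG was found for 6 of the 9 members with an entry (Sst, Vip, Cck, Cort, Nts and Adcyap1), against 19.8% of the 27025 genes searched. The full TGACGTCA, which contains TGACG on both strands, was found for Sst alone of these members and for 1.77% of genes. Such a match is a description of the letters and not evidence of a bound site.

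Each value below is a level: the log2 of a probe's signal relative to the 75th percentile of its own array, so 0 is the signal of that percentile and levels of different probes cannot be compared. A difference is given on the same log2 scale with its standard error (SE), and a gene is said to rise or fall where limma's test over all 40 arrays gave a Benjamini-Hochberg adjusted p under 0.05 and a fold over 1.5. The 75th percentile of the arrays was 365 to 925 intensity units and 51.4% to 61.4% of probes were well above background. Every slide held 8 arrays of 2 groups, so slide and condition cannot be told apart except in 3 comparisons made within a slide (aging in the cortex, the deficient diet in wild type cerebellum, and the supplemented against the deficient diet in Ttpa-/- cerebellum). The knockout label was checked with Ttpa itself: in the cerebellum 1 of its probes cleared background on 4 of 4 arrays of every wild type group (mean levels -3.01, -3.34 and -3.78), on 0 of 4 in the deficient Ttpa-/- group (-6.76) and on 1 of 4 in the supplemented one (-5.67). In the cortex that probe was well above background on at most 1 of 4 arrays in any group, so it checks no label there. The other Ttpa probe cleared background on 0 of 4 arrays of every wild type group in both regions. It did so on 1 of 4 in the deficient Ttpa-/- cerebellum (mean level -5.53), so it checks no label in either region. The tissues carried their own markers: all 10 cortical pyramidal markers were well above background on 20 of 20 cortical arrays, with Emx1 and Fezf2 among them on 0 of 20 cerebellar ones, and all 10 cerebellar markers were so on 20 of 20 cerebellar arrays, with Gabra6 and Cbln3 on 0 of 20 cortical ones. In whole tissue, fewer cells of a type and less RNA per cell cannot be told apart.

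The 10 precursors had higher mean levels in the cortex than in the cerebellum in these data. For 9 of them the lowest of 20 cortical arrays lay above the highest of 20 cerebellar arrays, by 0.98 for Nts to 3.47 for Tac2 on the log2 scale. Adcyap1 was the exception, with an overlap of 0.15 between the regions over all groups. The cerebellum was not without these RNAs, since Npy, Sst, Cck, Cort, Nts and Adcyap1 were well above background on 20 of 20 cerebellar arrays. In young wild type mice 10 of 10 members were higher in the cortex, where 19.1% of all 30203 probes tested were, and in aged normal-diet wild type mice 9 of 10 were, where 15.8% of 30859 probes were. Since the young cortex and the young cerebellum lay on different slides, as did the aged pair, slide and region cannot be told apart.

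**Figure D1:**
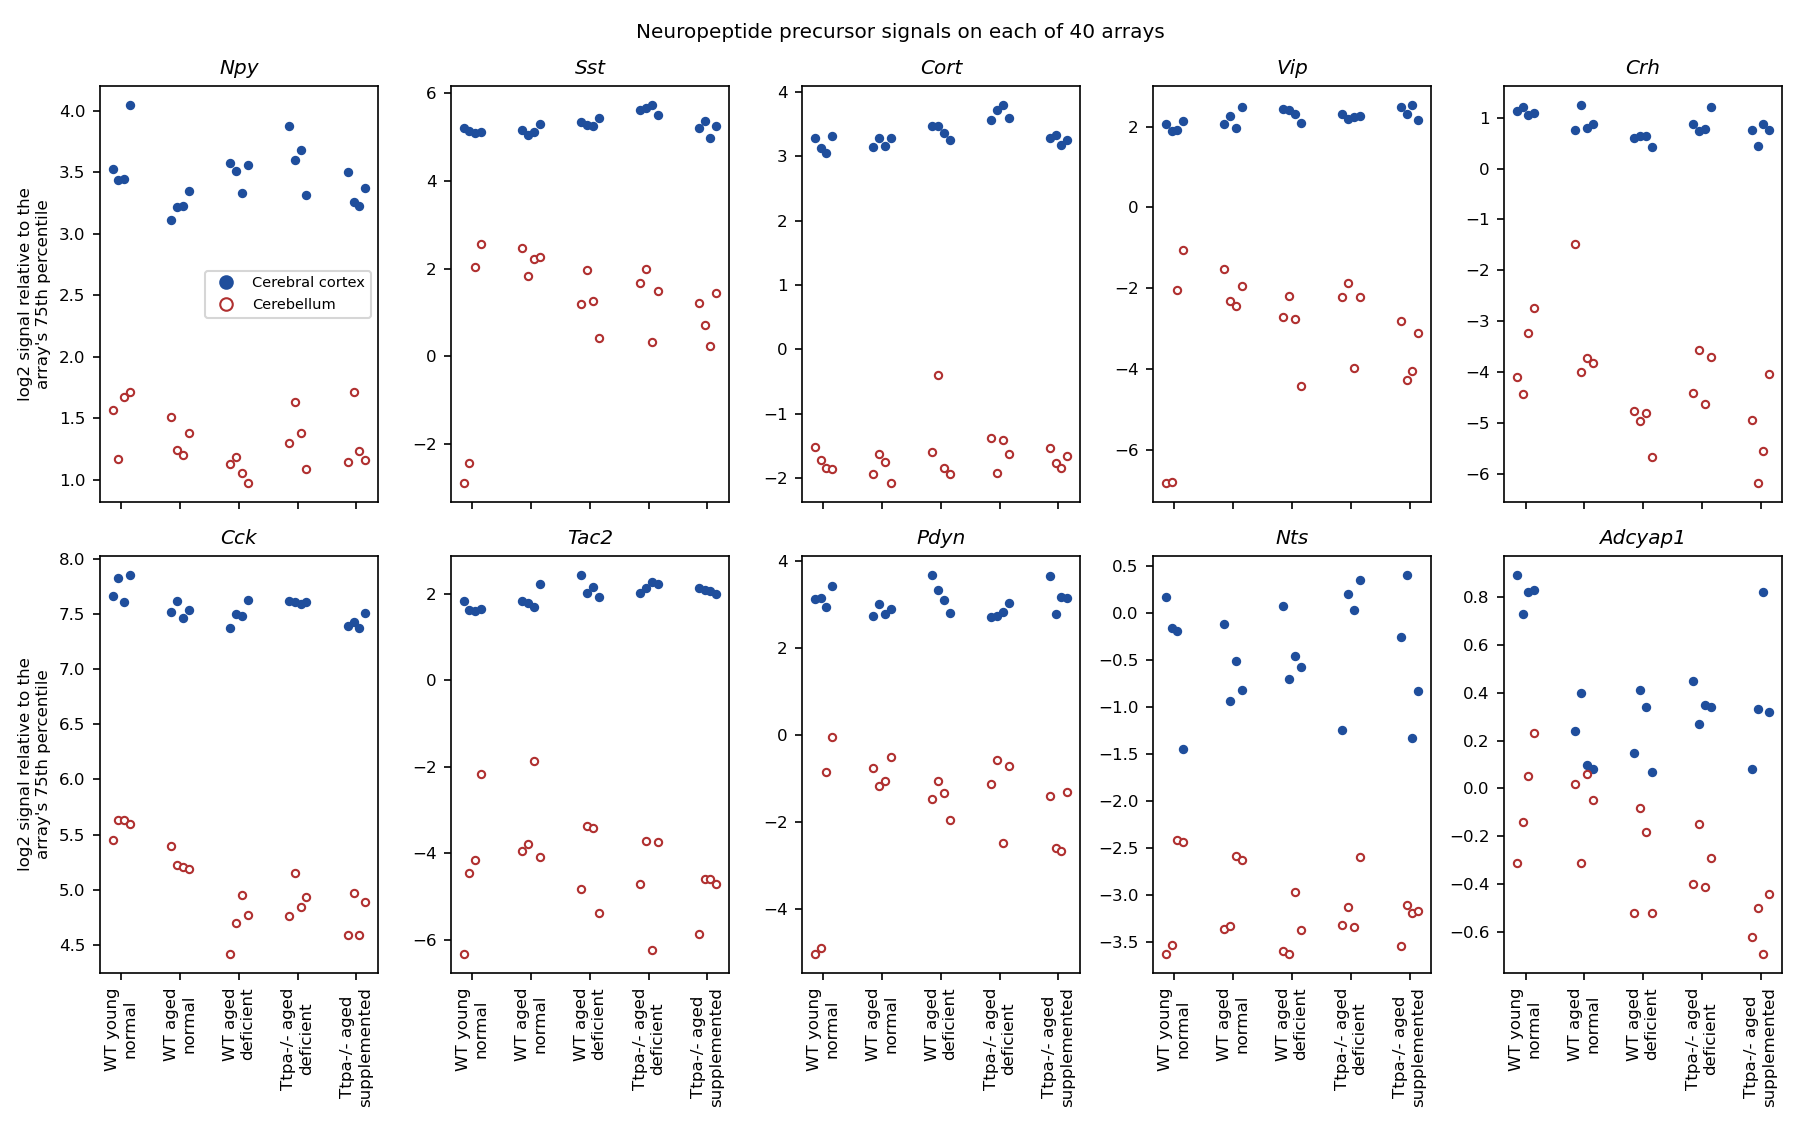
Levels of the 10 precursors on every array, as log2 signal relative to the array's 75th percentile, with 1 panel for each gene, the 5 groups along the horizontal axis, filled points for cortical and open points for cerebellar arrays. For 9 genes all 20 cortical points sit above all 20 cerebellar points, and the young cerebellar points of Sst, Vip and Pdyn split into a low and a high pair.

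Among the interneuron peptides, Cort was 30.4-fold higher in the cortex than in the cerebellum in young and 33.5-fold higher in aged mice. Npy was 4.25-fold higher in young and 3.72-fold higher in aged mice. For Sst the fold was 39.9 in young and 7.77 in aged mice, but the young value rests on 2 cerebellar arrays at -2.89 and -2.42 and a further 2 at 2.03 and 2.56, so it mixes low and high cerebellar samples, and without the low pair the log2 difference was 2.84 in place of 5.32. The same arrays carry the young folds of Vip (72.6-fold, against 19.0-fold in aged mice) and Pdyn (59.1-fold, against 13.3-fold), which were well above background on 2 of the 4 young cerebellar arrays and differed by 3.55 and 3.63 on the log2 scale without the low pair. A second, dimmer Pdyn probe was above background on all 20 cortical and on no cerebellar array, and was at least 3.47-fold higher in the young and at least 3.325-fold higher in the aged cortex.

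The remaining peptides differed less evenly. Crh was 26.9-fold higher in the young and 18-fold higher in the aged cortex, Tac2 61.5-fold and 39.6-fold, Nts 6.04-fold and 5.18-fold, and Cck 4.47-fold and 4.86-fold. Tac2 was well above background on 2 of 4 young cerebellar arrays, and its young log2 difference of 5.94 was 5.26 without young cerebellar replicate 1, 6.64 without replicate 4 and 4.83 without replicates 1 and 2, so its fold is loosely set. Adcyap1 was 1.81-fold higher in the young cortex, and in aged mice the 1.21-fold difference did not pass (adjusted p = 0.0654). The receptors and binding proteins of these peptides leaned the same way: of 21 tested in young mice, 15 were higher in the cortex and 2 lower, with a median difference of 2.05 beside 0.025 over all probes. The largest were Ntsr1, the neurotensin receptor (log2 difference 6.24), Crhbp, the protein that binds Crh (5.86), Cckbr, the main brain receptor of cholecystokinin (5.57), Npy2r (5.19) and Sstr2 (4.73). Of 16 genes for peptide processing and granules, such as the prohormone convertase gene Pcsk2 (1.80) and the amidating enzyme gene Pam (2.14), 8 were higher and 1 (Cadps2) was lower. Of the other neuropeptide precursors, 24 of the 40 on the arrays were tested, 10 were higher and 2 lower.

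The peptides of the aged cortex were compared between deficient-diet Ttpa-/- mice and normal-diet wild type mice. Genotype, diet and slide change together in this comparison, and oxidative stress itself was not measured on these arrays. Sst and Cort, the related peptides of somatostatin interneurons, were highest in the Ttpa-/- deficient group, above every array of the other 4 cortical groups. Neither passed the test over all 40 arrays, and how many of all probes separate in this way was not counted. The other 4 cortical groups lay on other slides, so slide and condition cannot be told apart here. Npy was also higher on average. No member changed past both thresholds (0 of 10), where 4.76% of all probes did, and 2 of 10 had an unadjusted limma p under 0.05.

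Sst stood at 5.61, 5.67, 5.73 and 5.49 on the 4 Ttpa-/- deficient cortical arrays. Aged normal-diet wild type mice had 5.16, 5.05, 5.11 and 5.29, deficient-diet wild type mice 5.34, 5.28, 5.24 and 5.43, and the supplemented Ttpa-/- mice 5.21, 5.37, 4.98 and 5.24. The young mice had 5.21, 5.14, 5.09 and 5.12, so the lowest Ttpa-/- deficient array lay above all 16 others, which were on other slides.

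Cort was at 3.57, 3.72, 3.80 and 3.59 in the Ttpa-/- deficient cortex. It was at 3.15, 3.29, 3.16 and 3.28 in aged normal-diet wild type mice and at 3.48, 3.47, 3.37 and 3.26 on the deficient diet. The supplemented Ttpa-/- arrays had 3.29, 3.34, 3.18 and 3.26 and the young arrays 3.28, 3.13, 3.05 and 3.31, and again no array reached the Ttpa-/- deficient group. For both genes the wild type deficient group came second, and all neighbours below the first place overlapped.

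Against wild type on the normal diet the difference was 0.47 for Sst (1.39-fold) and 0.45 for Cort (1.37-fold). limma's fit over all 40 arrays gave Sst an SE of 0.67 and an adjusted p of 0.676, because this fit shares 1 spread over both regions and Sst varied widely in the cerebellum. For Cort the SE was 0.19 and the adjusted p 0.0872. Fitted on the 20 cortical arrays alone, a setting chosen after the values were seen, limma's SE was 0.083 for Sst (adjusted p = 0.00195) and 0.078 for Cort (adjusted p = 0.00179). The groups did not overlap, and the exact two-sided permutation test gave p = 0.0286 for each, the smallest that 4 arrays against 4 allow. Read against all probes this is not unusual: 2 of 10 members had groups that did not overlap, where 23.4% of all tested probes did, and in the fit of the cortex alone 3 of 10 members passed the adjusted p regardless of fold (Sst, Cort and Npy), where 20% of probes did.

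Npy was at 3.88, 3.60, 3.68 and 3.32 in the Ttpa-/- deficient cortex and at 3.11, 3.22, 3.23 and 3.35 in aged normal-diet wild type mice. The lowest Ttpa-/- array lay below the highest wild type one. The difference of 0.39 (SE 0.14, 1.31-fold) had an adjusted p of 0.0468 by limma over all arrays, where 18.9% of probes passed at that threshold without a fold limit. The exact permutation test gave p = 0.0571.

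Sst and Cort also differed in both neighbouring comparisons. On the deficient diet, Ttpa-/- against wild type cortex differed by 0.30 for Sst (adjusted p = 0.0284 by limma on the cortical arrays alone) and by 0.28 for Cort (0.0315), and also by 0.32 for Crh (0.092). Those were the 3 members whose groups did not overlap, where 17.2% of all probes did. No member passed both thresholds over all arrays (3.07% of probes did, and 0 members had an unadjusted limma p under 0.05 there), and 2 of 10 passed the adjusted p in the cortex alone, where 12.9% of probes did. In Ttpa-/- mice the supplemented diet stood below the deficient one by 0.42 for Sst (adjusted p = 0.00555) and by 0.40 for Cort (0.00551) by the same fit of the cortex alone. Cck was lower by 0.18 there without overlap (adjusted p = 0.212 by limma over all arrays), and 3 of 10 members did not overlap where 19% of all probes did. Again none passed both thresholds (3.31% of probes, with 1 member at an unadjusted limma p under 0.05), and 2 of 10 passed the adjusted p in the cortex alone (14.2% of probes). These comparisons share the Ttpa-/- deficient arrays, and each pair lay on different slides.

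**Figure D2:**
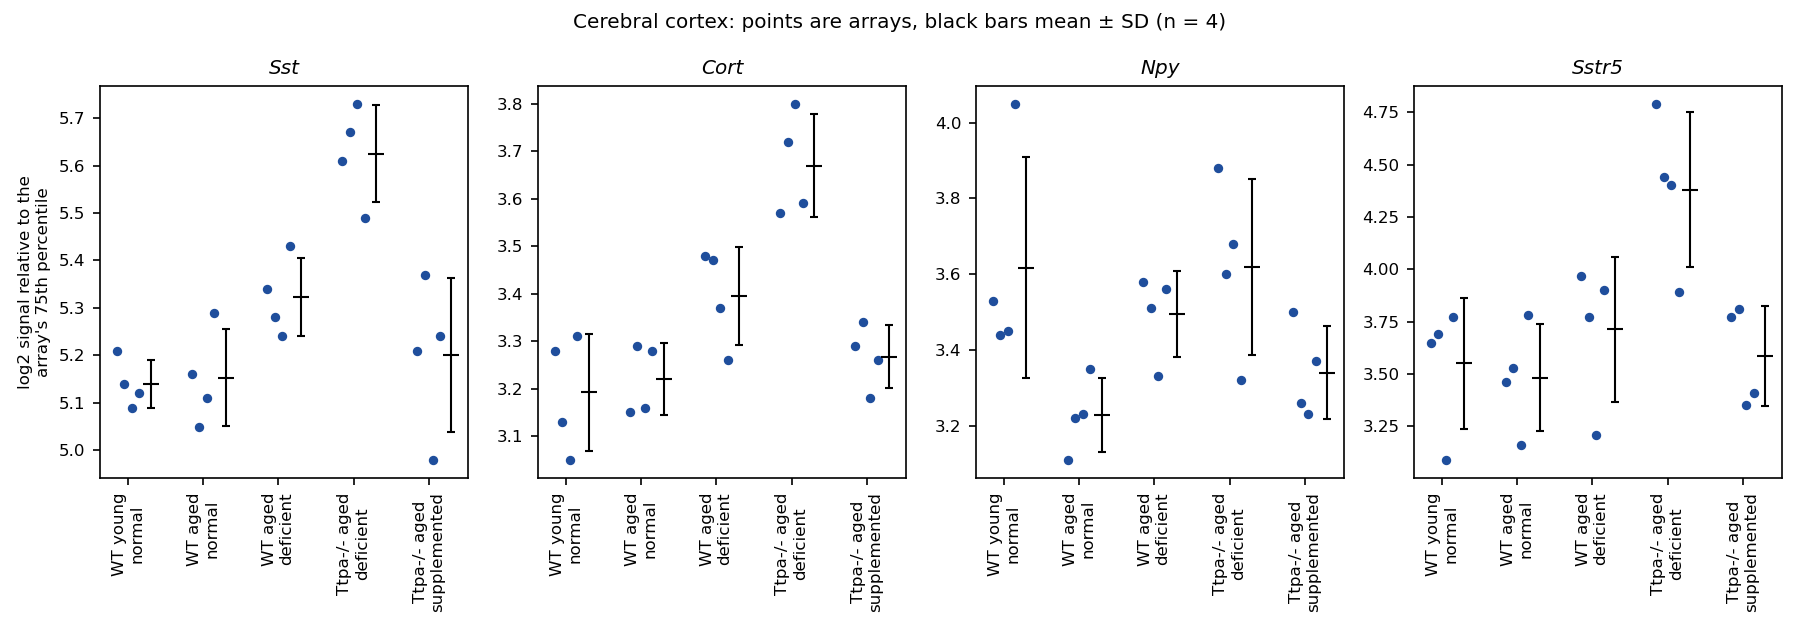
Levels of Sst, Cort, Npy and the somatostatin receptor gene Sstr5 on the 20 cortical arrays, as log2 signal relative to the array's 75th percentile, by group; points are arrays, and bars give the mean and SD of 4. All 4 Ttpa-/- deficient points of Sst and Cort lie above every other point, and those of Npy and Sstr5 overlap with other groups.

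Of the receptors, Sstr5, a somatostatin receptor that cortistatin also binds, was the 1 of 20 tested that changed between Ttpa-/- deficient and wild type normal cortex, a share like the 4.76% of all probes called there. Its level was 4.79, 4.44, 4.40 and 3.89 in the Ttpa-/- deficient group and 3.46, 3.53, 3.16 and 3.78 in the wild type normal group, with no overlap. It rose by 0.90 (SE 0.18, adjusted p = 0.000958 by limma). On the deficient diet it was 0.67 higher in Ttpa-/- than in wild type cortex (adjusted p = 0.0141), and in Ttpa-/- mice it was 0.79 lower on the supplemented than on the deficient diet (adjusted p = 0.00388). None of 24 other precursors, 16 processing genes, 12 interneuron genes and 12 activity genes passed in the first of these comparisons, where 6, 4, 3 and 3 had an unadjusted limma p under 0.05. Several did in the other two: Adm (adrenomedullin) was 0.62 lower in Ttpa-/- than in wild type cortex on the deficient diet and 0.64 higher on the supplemented diet, and the activity genes Fosb and Nptx2 were 0.85 and 1.04 higher and then 0.91 and 1.26 lower.

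Tissue makeup was set beside these values. The summed signal of the 12 GABAergic interneuron genes, in multiples of the 75th percentile, was 119 to 130 in the Ttpa-/- deficient cortex and 119 to 145 in the aged wild type cortex on the normal diet. The 7 pan-neuronal markers summed to 458 to 490 in the former, below the 501 to 546 of the latter, and the 5 astrocyte markers to 40.8 to 49.5 against 50.7 to 60.2. Choroid plexus markers varied within every cortical group, from 12.2 to 179 among the Ttpa-/- deficient arrays alone, and striatal markers ran from 28.6 to 34.3 there against 19.7 to 22.9 in wild type on the normal diet. Markers called in this comparison were the pyramidal Slc17a7 (0.71 higher), the striatal Drd2 (0.94) and Ppp1r1b (0.69), the hippocampal Lct (-1.33) and Prox1 (-0.61), and Car8 (-2.71) of the cerebellar list, and the 5 oligodendrocyte markers had a median difference of -0.46 with 3 of 5 at an unadjusted limma p under 0.05. The part of tissue makeup in the Sst, Cort and Npy values was not tested.

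Aging in the wild type cortex, which compares groups on 1 slide, lowered Adcyap1 and no other member past both thresholds. The young arrays had Adcyap1 at 0.89, 0.73, 0.82 and 0.83, and the aged arrays at 0.24, 0.40, 0.10 and 0.08. The young arrays were all above the aged ones and close to each other. Adcyap1 fell by 0.61 (SE 0.13, 1.53-fold), with an adjusted p of 0.00306 by limma, and by the fit within the slide the adjusted p was 0.030. The 1 member of 10 called lower stands beside 0.506% of all 28043 probes tested, or 2.1% in either direction. Its fold is only just over 1.5: without aged replicate 3 or 4 the difference was -0.57, with another background correction -0.54 and with array weights -0.58, all under that fold. The other aged groups had like levels, 0.07 to 0.41 in deficient-diet wild type mice and 0.27 to 0.45 in deficient Ttpa-/- mice. The supplemented Ttpa-/- arrays were at 0.08, 0.33, 0.82 and 0.32, the third of them reaching the young range.

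**Figure D3:**
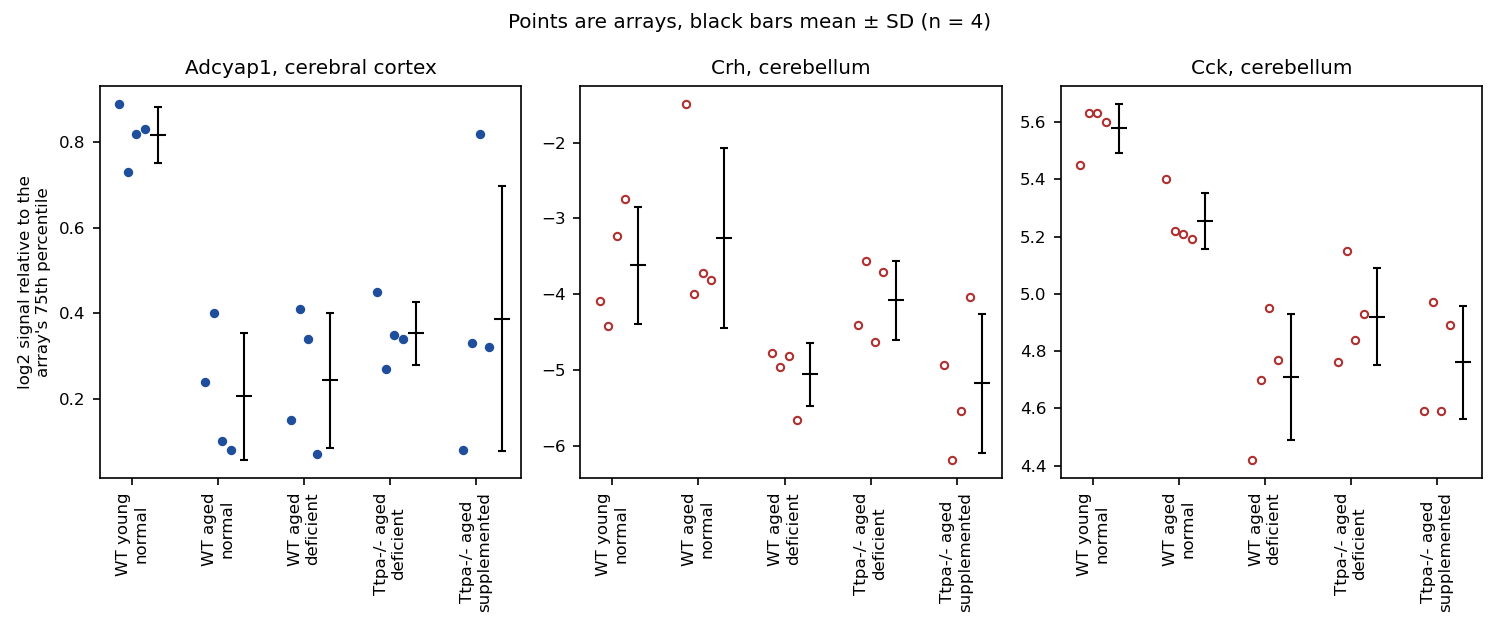
Levels of Adcyap1 on the 20 cortical arrays and of Crh and Cck on the 20 cerebellar arrays, as log2 signal relative to the array's 75th percentile, by group; points are arrays, and bars give the mean and SD of 4. Young Adcyap1 points lie above the 4 aged normal-diet points, and the cerebellar Crh and Cck points of wild type on the deficient diet lie below those on the normal diet.

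Npy was the other member whose groups did not overlap with age. It was at 3.53, 3.44, 3.45 and 4.05 in young and 3.11, 3.22, 3.23 and 3.35 in aged cortex. The difference of -0.39 had an adjusted p of 0.132 by limma, and 2 of 10 members without overlap stand beside 14% of probes. Neither the Sst nor the Cort groups separated with age. Among the other precursors, 3 of 24 tested rose with age, namely Adm (by 1.07), Calca, the precursor of calcitonin gene-related peptide (by 0.95), and Sct, secretin (by 0.87), and Penk, the enkephalin precursor, fell by 0.86 (adjusted p = 0.036). None of 21 receptors, 16 processing genes or 12 interneuron genes passed, while 3, 2 and 1 of them had an unadjusted limma p under 0.05, and the activity gene Fosb rose by 0.98. The striatal marker sum was 31.7 to 46.3 in the young and 19.7 to 22.9 in the aged cortex. Blood markers summed to 0.470 to 2.16 in the young and 5.22 to 12.3 in the aged group, and astrocyte markers to 41.6 to 49.6 in the young and 50.7 to 60.2 in the aged group, with no overlap and Gfap called at 1.51. The microglial marker Cd68 was called at 0.93, and the part of these markers in the differences was not tested.

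The deficient diet in wild type cortex changed no member past both thresholds (0.223% of probes passed), and none had an unadjusted limma p under 0.05 (0 of 10). Crh was at 0.61, 0.63, 0.64 and 0.43 on the deficient diet and at 0.75, 1.25, 0.79 and 0.87 on the normal diet. Its groups did not overlap, the only ones of 10 where 10% of probes did so, and the difference of -0.34 had an adjusted p of 0.72 by limma (0.195 on the cortical arrays alone). Of the other lists, the prohormone convertase gene Pcsk1 fell by 0.60 (adjusted p = 0.0339) and the neurotrophin gene Bdnf by 0.65. Both were also lower in supplemented Ttpa-/- cortex against the same wild type group, by 0.61 for Pcsk1 and 0.63 for Bdnf. The 2 comparisons share that wild type group, which lay on slide 1. The deficient wild type and supplemented Ttpa-/- arrays both lay on slide 2, so slide and condition cannot be told apart. In the fit of the cortex alone, 1 of 28254 probes passed the adjusted p for the deficient diet, so Pcsk1 and Bdnf did not both pass there. That supplemented group had no member past both thresholds either, where 0.092% of probes were, nor one with an unadjusted limma p under 0.05 (0 of 10).

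The other cortical members gave their levels within narrow ranges. Cck, which is shared by interneurons and pyramidal cells, ran from 7.37 to 7.85 over the 20 arrays, and Vip from 1.89 to 2.54. Tac2 ran from 1.59 to 2.42 and Pdyn from 2.72 to 3.68. Nts, whose neurons are sparse in the cortex, had the widest range, from -1.44 to 0.40, and differed by over 1 log2 unit among replicates of 3 groups.

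In the cerebellum the deficient diet in wild type mice, another comparison on 1 slide, gave lower levels of Crh and Cck. Crh stood at -1.49, -4.00, -3.72 and -3.81 on the normal diet and at -4.77, -4.96, -4.81 and -5.66 on the deficient diet. It was well above background on 4 of 4 and 1 of 4 arrays, so these are levels near the limit of the arrays, and the first normal-diet array stood far above the other 3. Crh fell by 1.80 (SE 0.40, 3.47-fold) with an adjusted p of 0.0136 by limma. The call is 1 of 10 members where 0.816% of probes were lower, or 1.28% in either direction. It did not hold within the slide (adjusted p = 0.157), on the cerebellar arrays alone (0.105), without the first deficient-diet array (-1.89, 0.0612) or without the first normal-diet array (-1.21, 0.0774). With the other background correction, which raises dim signals, the difference was -0.73 (adjusted p = 0.0389).

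Cck was at 5.40, 5.22, 5.21 and 5.19 on the normal and at 4.42, 4.70, 4.95 and 4.77 on the deficient diet. All deficient arrays lay below all normal ones. The difference of -0.54 (1.46-fold) passed the adjusted p (0.00454 by limma) and not the fold, and within the slide its adjusted p was 0.141. Crh and Cck were 2 of 10 members past the adjusted p alone, where 4.57% of probes were. Npy also did not overlap, at 1.51, 1.24, 1.20 and 1.38 against 1.13, 1.18, 1.05 and 0.97, with a difference of -0.25 (adjusted p = 0.309). These were 3 of 10 members without overlap, all lower, where 9.94% of probes were lower without overlap. The median difference of the 10 members was -0.57, beside -0.010 over all probes. Of the other lists, Pomc, which gives ACTH and beta-endorphin, fell by 0.82, Qpct, which forms the pyroglutamate end of some peptides, fell by 1.01, and Vipr1, a receptor of Vip and PACAP, rose by 0.86 (adjusted p = 0.00292). The thalamic markers Tcf7l2, Slc17a6, Lef1, Prkcd, Gbx2 and Lhx9 summed to 6.27 to 9.56 times the 75th percentile on the deficient and 9.23 to 12.02 times on the normal diet. The 5 oligodendrocyte markers summed to 113 to 202 on the deficient and 197 to 237 on the normal diet, with a median difference of -0.55, 4 of 5 at an unadjusted limma p under 0.05 and Mag called (-0.82, adjusted p = 0.0322). The part of both lists in these differences was not tested.

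Against normal-diet wild type cerebellum, supplemented Ttpa-/- mice had lower levels of Crh, Cck and Adcyap1. Crh was at -4.93, -6.18, -5.54 and -4.04 in the Ttpa-/- group, well above background on 2 of 4 arrays, and was 1.92 lower (3.78-fold, adjusted p = 0.00184 by limma). Without the first wild type array it was 1.33 lower with an adjusted p of 0.0143, and with the compared groups alone its adjusted p was 0.114, while Sst passed in its place. This is 1 of 10 members where 1.57% of probes were lower, or 4.91% in either direction. Cck, at 4.59, 4.97, 4.59 and 4.89, was 0.50 lower (adjusted p = 0.000921), and Adcyap1, at -0.62, -0.50, -0.69 and -0.44 against 0.02, -0.31, 0.06 and -0.05, was 0.49 lower (adjusted p = 0.00888), neither past the fold. These 3 of 10 members passed the adjusted p alone, where 14.6% of probes did. The means of Sst, Vip, Tac2 and Pdyn were lower by 1.30, 1.50, 1.51 and 1.13 and did not pass, though 7 of 10 members (these 4 with Crh, Cck and Adcyap1) were lower without overlap where 12% of probes were. The median difference of the 10 members was -0.81, beside -0.014 over all probes.

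Of the receptors of these peptides, 5 of 17 tested fell in that comparison, namely Tacr1 by 2.61, Npy5r by 1.86, Tacr3 by 1.82, Sstr1 by 1.18 and Npy1r by 1.01. Of the processing and granule genes Qpct fell by 0.997 and Vgf by 0.90. Cartpt and Pnoc fell by 1.11 and 0.80, and Hcrt, the orexin precursor, rose by 0.82. Of 12 activity genes 3 fell, Nptx2 by 1.74, Npas4 by 1.33 and Bdnf by 0.68, and the sum of the list was 17.7 to 21.6 in the supplemented Ttpa-/- group and 22.2 to 27.0 in the wild type normal group, with no overlap. The summed signal of the 6 thalamic markers moved with these values. It was 9.23 to 12.02 in the wild type normal group and 6.69 to 7.87 in the supplemented Ttpa-/- group. Of its members Lef1 was called, at 0.70 lower (adjusted p = 0.00111 by limma). The glutamate transporter gene Slc17a6 was not called. It was at 2.30, 1.53, 2.32 and 2.09 in the wild type normal group and at 0.71, -0.90, -0.79 and 0.71 in the supplemented Ttpa-/- group. The part of the thalamic markers and of the activity genes in the peptide values was not tested.

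Ttpa-/- mice on the deficient diet gave no cerebellar member past both thresholds against normal-diet wild type mice, where 4.46% of probes passed and 2 of 10 members had an unadjusted limma p under 0.05. Cck, at 4.76, 5.15, 4.84 and 4.93, was 0.33 lower (adjusted p = 0.0194 by limma), the 1 member of 10 past the adjusted p, where 13.2% of probes were. Of 22 other precursors tested, 2 rose and 4 fell, the largest changes being those of Cartpt (by -0.97), Calca (by -0.76), Pomc (by -0.74), Hcrt (by 0.69) and Adm (by -0.68), and Qpct was 0.98 lower. Oligodendrocyte markers were lower beside them (5 of 5 at an unadjusted limma p under 0.05, with Mag and Mbp called at -0.66 and -0.62), as were the astrocyte marker Gfap (-0.64) and the microglial marker Aif1 (-0.59), and their part was not tested. On the deficient diet, Ttpa-/- against wild type cerebellum gave none of 8 tested members (4.96% of probes, with 1 member at an unadjusted limma p under 0.05), while the somatostatin receptor genes Sstr4 and Sstr5 were 0.68 and 0.74 higher and Vipr2 0.65 lower. Between the Ttpa-/- diets, a comparison within a slide, no member passed both thresholds (0.343% of probes, and 0 of 8 members at an unadjusted limma p under 0.05), and the groups of Adcyap1 alone did not overlap (5.34% of probes) among the 8 members tested. Its deficient arrays were at -0.40, -0.15, -0.41 and -0.29, all above the supplemented ones listed before. The largest list gene there was Npas4, an activity gene, which was 1.60 lower on the supplemented diet, and Vgf was 0.85 lower.

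Aging in the cerebellum gave the widest differences of any comparison within a region and the least even ones, because the 4 young arrays fell apart into pairs. Sst was at -2.89, -2.42, 2.03 and 2.56 in young and at 2.47, 1.83, 2.22 and 2.26 in aged mice on the normal diet. Young replicates 1 and 2 stood far below replicates 3 and 4, and the latter lay within or just above the aged range. Sst was 2.37 higher in aged mice (SE 0.67, adjusted p = 0.0184 by limma), the 1 member of 10 called where 3.99% of probes were higher (5.03% in either direction). The groups overlapped, the exact permutation test gave p = 0.286, and on the cerebellar arrays alone limma's adjusted p was 0.144. Without young replicates 1 and 2 the difference was -0.10.

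Vip and Pdyn were split in the same way. Vip was at -6.83 and -6.80, not well above background, on young replicates 1 and 2 and at -2.05 and -1.05 on replicates 3 and 4, against -2.45 to -1.52 in aged mice. Pdyn was at -5.04 and -4.91, also not well above background, and at -0.86 and -0.05, against -1.17 to -0.50. The differences with age were 2.12 for Vip (adjusted p = 0.0665) and 1.85 for Pdyn (0.0611), without the first pair of young arrays they were -0.51 and -0.41, and with the other background correction 0.69 and 0.99.

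Of the 6 thalamic markers, Slc17a6 and Lhx9 split on the same 2 arrays. Slc17a6 was at -5.17 and -1.93 on young replicates 1 and 2 and at 1.99 and 2.63 on replicates 3 and 4, and Lhx9 was at -5.87 and -4.51 against -0.05 and 0.63, the values at -5.17, -5.87 and -4.51 being not well above background. Tac1, the substance P precursor, followed at -3.64, -2.48, 1.27 and 2.01. The other 4 did not: over all 20 cerebellar arrays Tcf7l2 ran from -2.05 to -1.07, Lef1 from -0.08 to 1.18 and Prkcd from 1.50 to 2.41, and Gbx2 was well above background on 0 of 20. Over the 6 thalamic markers the sum was 4.596 to 12.2 in the young and 9.23 to 12.02 in the aged group. The sum of the cortical pyramidal markers was 6.45 to 7.73 in the young and 6.38 to 6.96 in the aged group. Choroid plexus markers ran the other way, with sums of 251 and 32.6 on young replicates 1 and 2, 11.6 and 8.92 on replicates 3 and 4, and 5.57 to 6.50 in aged mice. The part of these markers in the Sst, Vip and Pdyn values was not tested.

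**Figure D4:**
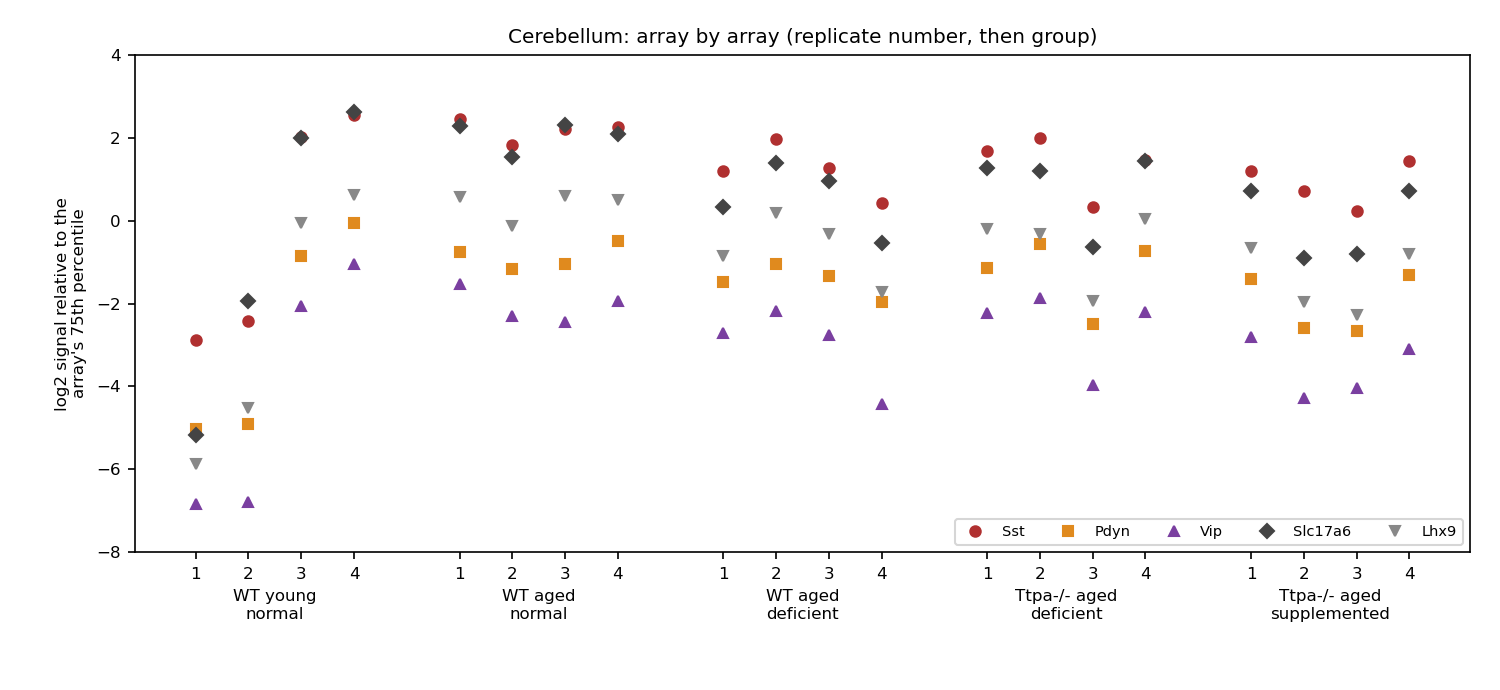
Levels of Sst, Pdyn, Vip, Slc17a6 and Lhx9 on each of the 20 cerebellar arrays, as log2 signal relative to the array's 75th percentile, with arrays ordered by group and replicate. Young replicates 1 and 2 are low for all 5 genes, and within aged groups the genes are also low together on single arrays, such as Ttpa-/- deficient replicate 3.

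The same genes were low together on single aged arrays. In Ttpa-/- mice on the deficient diet, replicate 3 had Sst at 0.33 beside 1.48 to 1.99 on the other arrays, Vip at -3.97 beside -2.22 to -1.86, and Slc17a6 at -0.64 beside 1.21 to 1.44. Other list genes that changed with age in the cerebellum were Tac1 (2.39 higher), Adm (1.35), Tac4 (0.64) and Pthlh (0.61) among the precursors. Of the receptors 4 rose, namely Tacr3 (by 2.14), Tacr1 (by 2.004), Cckbr (by 1.99) and Vipr2 (by 1.38, adjusted p = 8.62e-06), and Sstr3 fell by 0.87 (adjusted p = 6.41e-06). The SEs of Tac1, Tacr3, Tacr1 and Cckbr were 0.69, 0.60, 0.66 and 0.66, near the 0.67 of Sst, and that of Vipr2 was 0.20. Tac1 split on the young arrays as given above. How far these list genes rest on young replicates 1 and 2 was not tested. Pam rose by 0.65, and of the activity genes Egr2 rose by 1.97 and Egr4 fell by 0.84. Of the 5 microglial markers 4 were called higher beside these changes, Cd68 by 2.99 and Aif1 by 1.79 among them, and their part was not tested.

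Cck, by contrast, showed no such split in the young cerebellum. It was at 5.45, 5.63, 5.63 and 5.60 in young mice and, as above, at 5.19 to 5.40 in aged mice. Every aged array lay below every young one, where 19.1% of probes did not overlap in either direction, and the difference was -0.32 (adjusted p = 0.0264 by limma, under the fold). With Sst it made 2 of 10 members past the adjusted p alone, where 11% of probes were. The 10 cerebellar neuron markers moved with it: their median difference was -0.37, 7 of 10 had an unadjusted limma p under 0.05 and 0 were called, and their sum was 631 to 741 in young and 535 to 585 in aged mice, with no overlap. Their part in the Cck difference was not tested. Cort stayed between -2.08 and -0.39 over all 20 cerebellar arrays and Nts between -3.62 and -2.41, with no call for either in any comparison within the cerebellum.

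Whether differences were unlike in the cortex and the cerebellum was tested as an interaction. This was done for every comparison within a region, and no member passed in any. The share of all probes was counted for age and, as a second comparison, for deficient-diet Ttpa-/- against normal-diet wild type mice, where genotype and diet change together. There 1.46% of probes passed for age and 3.39% for the second comparison. At an unadjusted limma p under 0.05 there were 3 members for age and 2 for the second comparison. The cortical minus the cerebellar age difference was -0.58 for Adcyap1 (adjusted p = 0.0997 by limma), -2.36 for Sst (0.278) and -2.16 for Pdyn (0.311). For Ttpa-/- deficient against wild type normal it was 0.41 for Cck (adjusted p = 0.0623). The lowest adjusted p of any member was that of Adcyap1 for supplemented Ttpa-/- against wild type normal (0.67, adjusted p = 0.0536 by limma).

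Within the cortical groups, pairs of members were compared after each array's group mean was removed, over 20 arrays. None of 45 pairs passed after adjustment by a permutation test, and 8 had an unadjusted p under 0.05. This count depends on the scaling, since 20 of the 45 passed when arrays were scaled to their median. The strongest were Sst with Crh (Pearson's r = -0.71, Spearman's rho = -0.64, permutation p = 0.00682, adjusted 0.133) and Vip with Tac2 (r = 0.67, rho = 0.56, permutation p = 0.00848, adjusted 0.133). Without the 2 arrays farthest from the median, r was -0.63 and 0.48.

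The genes whose cortical pattern was most like each member, by Pearson's r over the 20 cortical arrays, are a description only, since all share groups, slides and array scale. For Sst they were Smap2 and Gprin1 (r = 0.96 for each), beside a probe with no gene symbol, and for Cck they were ND2 and Cx3cl1 (0.92 for each) and Lin7a. Nts was most like Nr2f2 (0.93), a transcription factor of interneurons, then Car12 and Doc2b. Crh was most like Crem (0.88), a cAMP-responsive regulator, then Cnot4 and Zfp760, and Adcyap1 was most like Ing4 (0.83), then Gm2149 and Akap7. Vip was most like Agxt2l1, Pink1 and 1500012F01Rik, Tac2 like 4933411K20Rik, Ahctf1 and Srsf2, Pdyn like Arhgef17, Prss23 and Ubl3, and Npy like Gp1bb (0.90) beside 2 probes of noncoding regions. The nearest patterns to Cort were 3 probes with no gene symbol. Over the 20 cerebellar arrays, Sst was most like Nrgn (0.99), Tac1 (0.98) and Meis2 (0.97).

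The probes lie at these mm9 positions: Npy at chr6:49773743-49777505, across an intron, Sst at chr16:23889776-23889835, Vip at chr10:4699238-4699297, Cck at chr9:121398943-121399002 and Cort at chr4:148499300-148499359. Crh is at chr3:19593482-19593541, Tac2 at chr10:127168764-127168823, Nts at chr10:101944967-101945026 and Adcyap1 at chr17:93604401-93604460. Pdyn has a brighter probe at chr2:129512323-129512382, used above, and a dimmer one at chr2:129513968-129514027. Sst was printed as 10 spots on each array, which were averaged, and every other probe once. The part of the transcript each probe meets (coding or untranslated) was not analysed here.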

How the data were processed

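RNA was extracted by the authors with a mirVana kit, labelled with Cy3 and hybridised to Agilent 1-colour arrays, with 4 mice per group per the study's methods. The labels do not say whether arrays of both regions came from the same mice. The deposited scanner tables hold intensity: per the file headers, Feature Extraction 10.7.3.1 subtracted the background and detrended each array, with no scaling between arrays. The authors also deposited a table of log2 values, whose median distance from the levels computed here was 0.000973 once each probe was centred on its mean over the arrays, so it is scaled to the 75th percentile and centred by probe.

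Control spots and spots marked as outliers were left out, spots of a probe were averaged, and log2 of the processed signal minus log2 of the array's 75th percentile was taken. No spot of a kept probe was saturated (0 values). limma 3.58.1 (R 4.3.3) fitted 1 mean for each of the 10 groups over all 40 arrays. A probe was tested where all 4 arrays of a compared group had it well above background, and a call needed a Benjamini-Hochberg adjusted p under 0.05 over all tested probes and a fold over 1.5, the threshold of the methods. Exact two-sided permutation tests used all 70 splits of 4 arrays against 4, whose smallest p is 0.0286, and pairs of members used 100000 resamples. limma's p-values set a difference against the spread between arrays within groups, pooled over all 10 groups unless another fit is named. The probe with the highest mean stood for a gene. The members were chosen by name, and they and the lists (other precursors, processing genes, receptors, interneuron genes, activity genes, tissue markers) were chosen with earlier results of these data known. Members were all named, list genes only where called (at most the 5 largest changes per list and comparison), and the 3 genes most like each member by Pearson's r. Scripts were tested on simulated data. Alternatives covered background correction (normexp, offset 50), scaling, quantile normalization, the probe filter, array weights, the samples fitted, the slide, the replicate number, the methods' t-test, the fold threshold, other probes, the authors' table and each array left out. Promoter letters came from RefSeq, where Crh was not searched. Depth has no counterpart on arrays, and the 4 arrays per group limit the precision.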

Additional observations from a re-analysis of the deposited data

Results flagged for a closer look

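Of 100 groups of 4 arrays (10 members in 10 groups), 8 held an array that stood far from the other 3 by Dixon's ratio, where chance gives about 1 in 20 groups. In the cortex these were Npy in young wild type replicate 4, at 4.05 beside 3.44 to 3.53, and Crh in wild type on the deficient diet replicate 4, at 0.43 beside 0.61 to 0.64. In normal-diet wild type cerebellum, aged replicate 1 was highest for Cck, at 5.40 beside 5.19 to 5.22, and for Crh, at -1.49 beside -4.00 to -3.72, and replicate 3 was highest for Tac2, at -1.87 beside -4.09 to -3.79. In supplemented Ttpa-/- cerebellum replicate 2 was highest for Npy, at 1.71 beside 1.14 to 1.23, and replicate 1 was lowest for Tac2, at -5.86 and not well above background, beside -4.70 to -4.60. In Ttpa-/- cerebellum on the deficient diet replicate 3 was lowest for Vip, at -3.97 beside -2.22 to -1.86.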

How the results depend on the processing

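Counts of members called changed under these alternatives. Aging in the cortex went from 1 to 0 with normexp and with array weights, and to 0 to 1 over single arrays left out. Aging in the cerebellum went from 1 to 0 with the compared groups alone, with the cerebellar arrays alone, with the methods' t-test (0 before and 0 after adjustment) and without young replicates 1 and 2, to 2 without the fold threshold (Sst and Cck), to 4 without young replicates 3 and 4, and to 0 to 3 over single arrays left out; it was lost without young replicate 1 (Sst 1.47) or 2 (1.63) or aged replicate 1 (2.28). The deficient diet in wild type cerebellum went from 1 to 0 with the compared groups alone, within the slide, with the cerebellar arrays alone and with the adjusted t-test, to 2 with median scaling, with the unadjusted t-test and without the fold threshold, and to 0 to 2 over single arrays left out, lost without replicate 1 of either group. Supplemented Ttpa-/- against wild type cerebellum went from 1 to 2 with array weights, to 5 with the unadjusted and 0 with the adjusted t-test, and to 3 without the fold threshold. Deficient Ttpa-/- against wild type went from 0 to 1 in the cerebellum with array weights or without the fold threshold, and from 0 to 1 in the cortex without the fold threshold. The age interaction went from 0 to 4 without young cerebellar replicates 3 and 4 and to 0 to 3 over single arrays. Pairs that moved together went from 0 to 20 with median scaling and to 0 to 1 over single arrays.

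Without young cerebellar replicates 1 and 2 the age difference turned to -0.10 for Sst, -0.51 for Vip and -0.41 for Pdyn, and the interaction to 0.12 for Sst and 0.10 for Pdyn; the cause was not tested. The settings on those young replicates and on 1 region alone were chosen after seeing the data. Median scaling moved the median of all probes to -0.19 for the deficient diet in wild type cerebellum and to 0.17 for genotype there. Over all settings other than single arrays left out, those above included, 189 counts stayed and 25 moved, and of single values 508 stayed, 8 weakened, 8 strengthened and 5 reversed.

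Same-numbered arrays did not all pair in any comparison (correlations -0.45 to 0.66, and in none were all over 0.1). Some likeness by number was seen. In the aging cortex 6 of 8 arrays were most like their own number (mean correlation 0.24). The same count held for supplemented against deficient Ttpa-/- cerebellum (0.34) and aged wild type cortex against cerebellum (0.16). For supplemented Ttpa-/- against wild type cerebellum it was 0 of 8. With the replicate number as a block the count of members called changed in no comparison (1 in the aging cortex, 1 in the aging cerebellum, 0 for deficient Ttpa-/- cortex). A slide block could not be fitted where groups lay on different slides. Dim signals limit Crh, Tac2, Vip and Pdyn in the cerebellum.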
